A study of Mus musculus with 5 samples.

Results

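Zfp608 and Tcf7l2 were examined as sites of RXRα binding in mouse alveolar macrophages (AMs), the macrophages that reside in the airspaces of the lung. Both genes were selected on the number of regions that carried an RXRα peak in each of the 2 WT libraries, with at least 10 such regions per gene. A peak was assigned to the gene whose protein-coding transcription start site (TSS) lay nearest to its midpoint. By this rule 91 of the 14808 peaks in the 4 ChIP lists belonged to the pair, and 24 of the 3423 regions found in both WT lists, 14 at Zfp608 and 10 at Tcf7l2. The number of WT regions is therefore what chose the genes and is given as a description.

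The libraries were made by HT-ChIPmentation, in which immunoprecipitated chromatin is tagmented by Tn5 on the beads. AMs came from bronchoalveolar lavage fluid and were purified by FACS. All mice carried floxed Rxra and Rxrb, and the labels give no age. WT A and WT G lacked Cre (CD11cCre- Rxrabfl/fl), and KO A and KO G carried it (CD11cCre+ Rxrabfl/fl), so that both receptors are targeted in cells that use the Cd11c (Itgax) promoter, which AMs share with dendritic cells. The letters A and G are replicate letters, and the labels do not say whether they stand for separate mice or for a shared day. Peak lists hold no expression values, so neither the AM identity nor the deletion could be checked in them.

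RXRα is a nuclear receptor that binds paired copies of AGGTCA, alone as a homodimer or with partners such as PPARγ, LXR or the retinoic acid receptors, and the spacing of the repeat depends on the partner. In AMs, the partner PPARγ is known for its part in their differentiation and lipid handling. Tcf7l2 encodes a member of the TCF/LEF family, the DNA-binding proteins through which β-catenin acts on target genes when Wnt signalling is on, and which recruit Groucho/TLE corepressors when it is off. Zfp608 encodes a zinc finger protein whose closest relative is Zfp609.

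Of the 10 Tcf7l2 regions, 4 are shown by sequence because they hold the site types searched or were the strongest within the gene. Regions are numbered T1 to T10 in the 5′ to 3′ direction of the gene. T2, 81.6 kb upstream of the first TSS, was the strongest Tcf7l2 region in WT A and the only region of either gene with a DR1, the repeat with a spacing of 1 bp, within 50 bp of that summit. With 100 bp on each side, or with the strongest peak chosen by its percentile in its list, 2 regions had one. T1, 193 kb upstream, and T2 hold the RUNX letters TGTGGTT. T10, in intron 4, holds the C/EBP letters. T4, in intron 3, was the strongest Tcf7l2 region in WT G and holds none of the sites searched. Each run is 101 bases of GRCm38 (mm10), plus strand, centred on the summit of the stronger WT peak, and capitals mark the matched letters.
T1 (chr19:55548798-55548898): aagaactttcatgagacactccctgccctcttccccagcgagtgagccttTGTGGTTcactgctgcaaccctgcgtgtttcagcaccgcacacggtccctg
T2 (chr19:55660174-55660274): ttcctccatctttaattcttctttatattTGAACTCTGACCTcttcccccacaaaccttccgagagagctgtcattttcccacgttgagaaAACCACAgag
T4 (chr19:55803432-55803532): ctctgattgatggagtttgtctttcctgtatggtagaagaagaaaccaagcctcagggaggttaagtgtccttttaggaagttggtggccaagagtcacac
T10 (chr19:55876607-55876707): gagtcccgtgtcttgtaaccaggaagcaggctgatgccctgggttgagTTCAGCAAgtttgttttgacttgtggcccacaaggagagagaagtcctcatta

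In T2 the DR1 lay on the minus strand at chr19:55660203-55660215 and read AGGTCAGAGTTCA, with its centre 15 bp from the summit. It differed from AGGTCANAGGTCA by G10T, counted from the 5′ end of the repeat. The RUNX letters of T2 were also on the minus strand, 44 bp to the other side of the summit. In T1 they lay 3 bp from the summit on the plus strand, and the C/EBP match of T10, TTGCTGAA on the minus strand, lay 2 bp from it.

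Peaks were abundant at both loci in WT cells and nearly absent in KO cells. Zfp608 had 16 (WT A) and 37 (WT G) peaks in the WT libraries, and 1 (KO A) and 2 (KO G) in the KO libraries. Tcf7l2 had 12 and 23 peaks in WT A and WT G, and neither KO library had any. From here on, pairs of WT values give WT A first and WT G second, and pairs of KO values give KO A first. At both genes every WT list held more peaks than either KO list. The means were 26.5 ± 14.8 in WT and 1.5 ± 0.707 in KO at Zfp608 (SD, n = 2 each), a 17.7-fold ratio, and 17.5 ± 7.78 against 0 at Tcf7l2. With 2 libraries per genotype no 2-sided exact permutation test can give a p below 0.33, and the WT number chose the genes, so no test was made. Without WT G the difference at Zfp608 fell from 25 to 14.5 peaks, with WT G held to its strongest peaks up to the number in WT A it was 14, and within the letters it was 15 (A) and 35 (G).

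**Figure D1:**
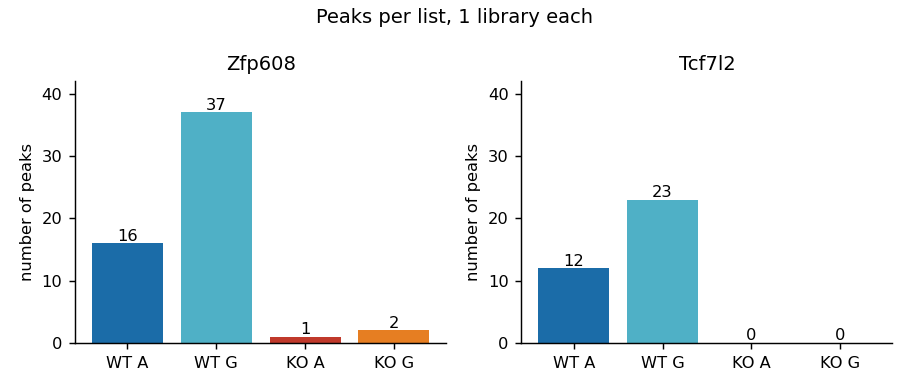
Number of RXRα peaks (y axis, from 0) assigned to Zfp608 and Tcf7l2 in each list, with 1 bar per library. WT G is the highest bar at both genes (37 and 23), and the KO bars reach at most 2.

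The whole lists differed in the same direction, with 4751 and 9766 WT peaks and 83 and 208 KO peaks. Over all peaks the WT mean was 49.9 times the KO mean, a larger ratio than the 17.7 of Zfp608. Zfp608 peaks made up 0.337% and 0.379% of the WT lists and 1.2% and 0.962% of the KO lists, where they rest on 1 and 2 peaks. Tcf7l2 peaks made up 0.253% and 0.236% of the WT lists. The number of fragments under each summit was derived from the deposited values. The weakest peak at the genome-wide background needed 10 and 5 fragments in the WT libraries and 10 and 8 in the KO libraries. Depth relative to the input, also derived, was 1.13 and 0.237 for WT, and 0.647 and 0.848 for KO. The estimate was not checked against read totals, and that of WT G rests on its shortest peak of 215 bp, against 102 to 138 bp in the other lists. If it holds, WT G, with the most peaks, was shallower than both KO libraries. The part of depth in the differences between lists was not tested.

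Zfp608 (ENSMUSG00000052713.9; GRCm38, chr18:54888048-54992555, minus strand) spans 104.5 kb with 10 exons in its reference transcript. The TSS used here, the only one in the basic annotation set, is at 54990166; the span reaches further 5′ because the comprehensive set holds another start at 54992555, so that the promoter of the TSS used lies inside it. It lies alone: the nearest protein-coding TSSs belong to Csnk1g3 and Gramd3, 1128 and 1410 kb away. The long antisense RNA gene Gm4221 starts beside it on the other strand. The 14 WT regions, numbered Z1 to Z14 along the direction of the gene, spread over 563 kb. There were 2 far upstream (Z1 and Z2, 419 and 400 kb from the TSS), 2 at the start of the gene (Z3 and Z4), 3 in intron 2 (Z5 to Z7), 3 in intron 3 (Z8 to Z10) and 4 downstream of the gene, 137 to 144 kb from the TSS (Z11 to Z14).

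Z9, in intron 3 and 74.0 kb from the TSS (chr18:54915788-54916587), was the strongest Zfp608 region, with −log10 q values of 24.6 and 23.3. Its fold enrichment over the local background was 13.4 and 14.8, from 33 and 22 fragments at the summit. The summits of the libraries lay 12 bp apart. Neither KO list held a peak there.

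Z4 (chr18:54988779-54990159) covered most of exon 1 and intron 1, with its midpoint 0.697 kb into the gene, in the promoter window of Gm4221. Its −log10 q reached 22.0 and 18.8, and its fold enrichment 12.6 and 12.9. Z3 (chr18:54990198-54991203), in the Zfp608 promoter itself, was separated from Z4 by 38 bp and was weaker, at 8.06 and 5.73. Z9, Z7 and Z4 all exceeded it in both WT libraries. Z10 (chr18:54900033-54900882), at the 3′ end of intron 3, was uneven, at 15.8 against 4.84.

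**Figure D2:**
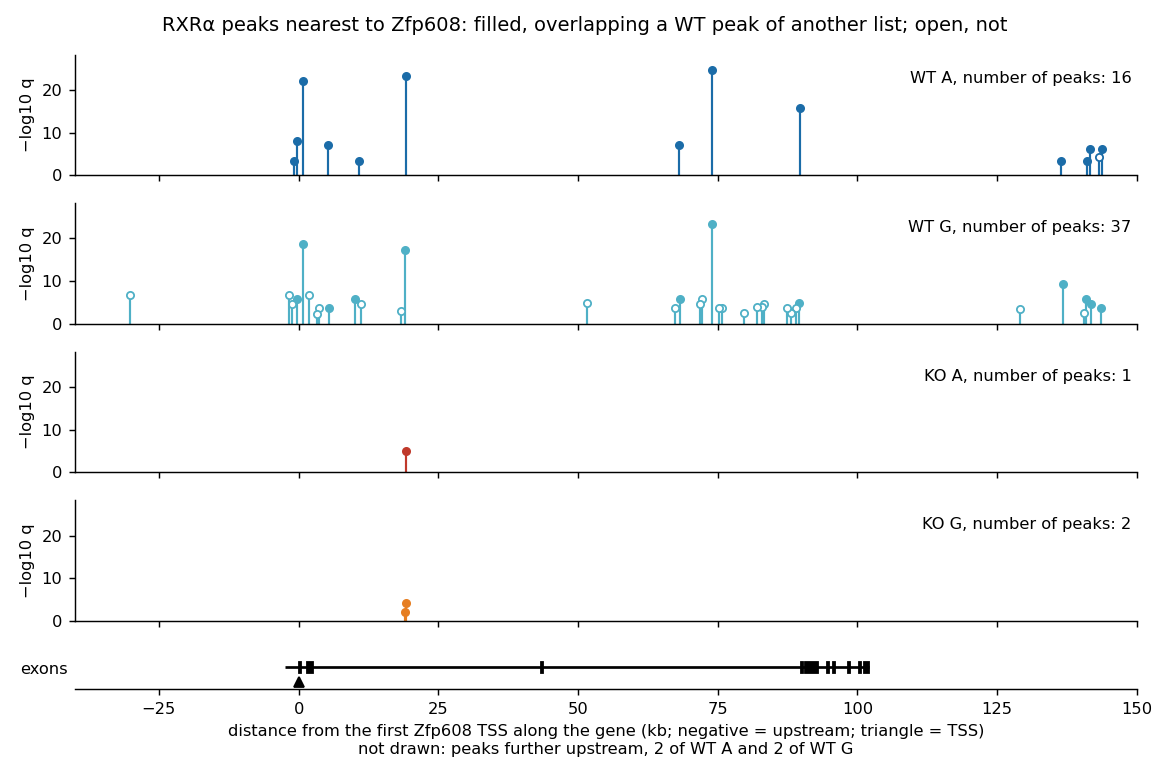
−log10 q (y axis) of each peak assigned to Zfp608 against the distance of its summit from the TSS in kb (x axis), with 1 panel per list and the exons of the gene below. Filled circles overlap a WT peak of another list and open circles do not. The same tall peaks stand near 0.8, 19 and 74 kb in both WT panels, WT G adds many low open circles in intron 3, and the KO panels are empty except in intron 2.

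The remaining Zfp608 regions were modest. Z1, Z2, Z5, Z6, Z8 and Z11 to Z14 ranged from 2.5 to 9.11 on the −log10 q scale of WT A and from 3.61 to 9.26 on that of WT G. By the sum of ranks over both WT lists, 3 of the 14 regions (Z9, Z4 and Z7) were in the top 10% of all 3423 regions, 10 were in the lower 50% and 1, Z10, lay between. The locus therefore combined a few strong peaks with many weak ones, and the median Zfp608 peak ranked at the 48.8th percentile of WT A and the 44.8th of WT G.

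Z7 was the only one of the 14 Zfp608 regions with a KO peak, and both KO libraries had a peak there. Over all regions in both WT lists, 5.87% had a peak in either KO list, 2.16% in that of KO A and 5.35% in that of KO G. Z7 lies in intron 2, 19.1 kb from the TSS (chr18:54970388-54971696). WT −log10 q values of 23.3 and 17.3 stood against 5.04 for KO A and against 4.15 and 2.24 for a pair of KO G peaks. The fold enrichments were 13.0 and 12.3 in WT, 6.61 in KO A, and 6.20 and 5.17 in KO G. The summits held 32 and 18 fragments in WT, 12 in KO A, and 11 and 9 in KO G. Every KO value was below both WT values, each against the background of its own library.

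The KO summits of Z7 lay inside the interval between the WT summits. The WT A summit was 19.293 kb and the WT G summit 18.989 kb from the TSS, with the KO A summit at 19.180 kb and the KO G summits at 19.270 and 19.086 kb. The KO peaks were narrow, 200 bp in KO A and 102 bp each in KO G, within a WT region of 1309 bp. A demand for 50% of both peaks to be shared, or for summits at most 200 bp apart, left no Zfp608 region with a KO peak. KO peaks this narrow could not meet the first demand against WT peaks of 1084 and 1307 bp. Under the second, Z7 was lost because its WT summits lay 304 bp apart.

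**Figure D3:**
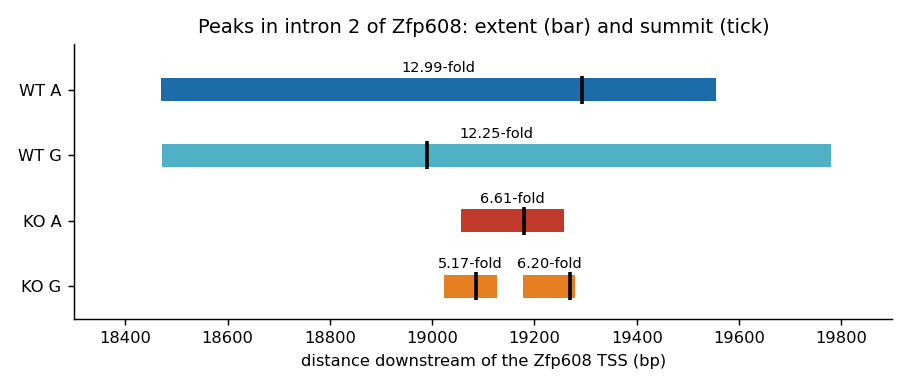
Extent (bars) and summits (black ticks) of the peaks of Z7 in each list, against the distance from the Zfp608 TSS in bp, with the fold enrichment above each bar. The 3 KO peaks sit inside the WT peaks at 5.17- to 6.61-fold, below the 12.99- and 12.25-fold of the WT peaks.

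KO peaks were most frequent among the strongest WT regions. Of the top 10% of regions by the sum of ranks, 35.8% had a KO peak, as did 8.12% of those from 10% to 25%, 3.13% from 25% to 50% and 0.645% of the rest. Zfp608 had 3 regions in the top class, of which Z7 had a KO peak and Z9 and Z4 did not. Z9 was stronger than Z7 in both WT lists. A KO peak at the genome-wide background had a fold enrichment of at least 5.60 (KO A) or 4.65 (KO G). The WT A value exceeded these in 10 and 12 of the 14 Zfp608 regions, and the WT G value in 11 and 14. These counts are a guide only, because a fold enrichment with 1 added to pileup and background depends on depth. The genome-wide background was 1.255 and 0.551 fragments in WT, and 0.966 and 0.936 in KO. A missing KO peak means that no enrichment passed the threshold in that library at its depth.

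Tcf7l2 (ENSMUSG00000024985.19; GRCm38, chr19:55741820-55933654, plus strand) spans 191.8 kb with 12 exons in its reference transcript and has 9 annotated TSSs, the last of them 153.7 kb inside the gene. Its neighbours are Vti1a on the 5′ side and Habp2 on the 3′ side. None of the 10 WT regions was at a promoter. There were 7 in introns, T4 in intron 3 (74.6 kb long) and T5 to T10 in intron 4 (90.6 kb long), and 3 upstream. T1 lay in an intron of Vti1a, and T2 and T3 in introns of the lincRNA gene 4930552P12Rik, so that these 3 were assigned to Tcf7l2 by its TSS alone. The regions spread over 329 kb.

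By the sum of ranks over both WT lists, the upstream regions and T4 were the strongest at Tcf7l2. In WT G alone, T1 was level with T5, T6 and T10, at a −log10 q of 9.26. T2 (chr19:55659767-55660621) had −log10 q values of 16.2 and 12.4, with a fold enrichment of 9.76 and 9.58. T4 (chr19:55803101-55803773), 61.6 kb into the gene, had 12.4 and 13.2. T3 (chr19:55700700-55701550), 40.7 kb upstream, had 11.3 and 11.8, and T1 (chr19:55548423-55549180) 11.8 and 9.26. These 4 regions all fell between the top 10% and 25% of all regions by the sum of ranks, and no Tcf7l2 region was in the top 10%.

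Within intron 4, T8 (chr19:55865815-55867093) led by the sum of ranks, at 9.11 and 6.88. T5, T6 and T7 lay 78 to 86 kb from the first TSS, and T8, T9 and T10 lay 125 to 135 kb from it, which is 18.8 to 29.1 kb before the internal TSS. Across T5 to T10 the −log10 q ran from 4.31 to 9.11 (WT A) and from 6.88 to 9.26 (WT G), and by the sum of ranks 3 of these 6 regions were in the class from 25% to 50% and 3 in the lower 50%. T5, T6, T7 and T10 were higher in WT G and T8 and T9 in WT A, in lists whose −log10 q values depend on their own depth.

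**Figure D4:**
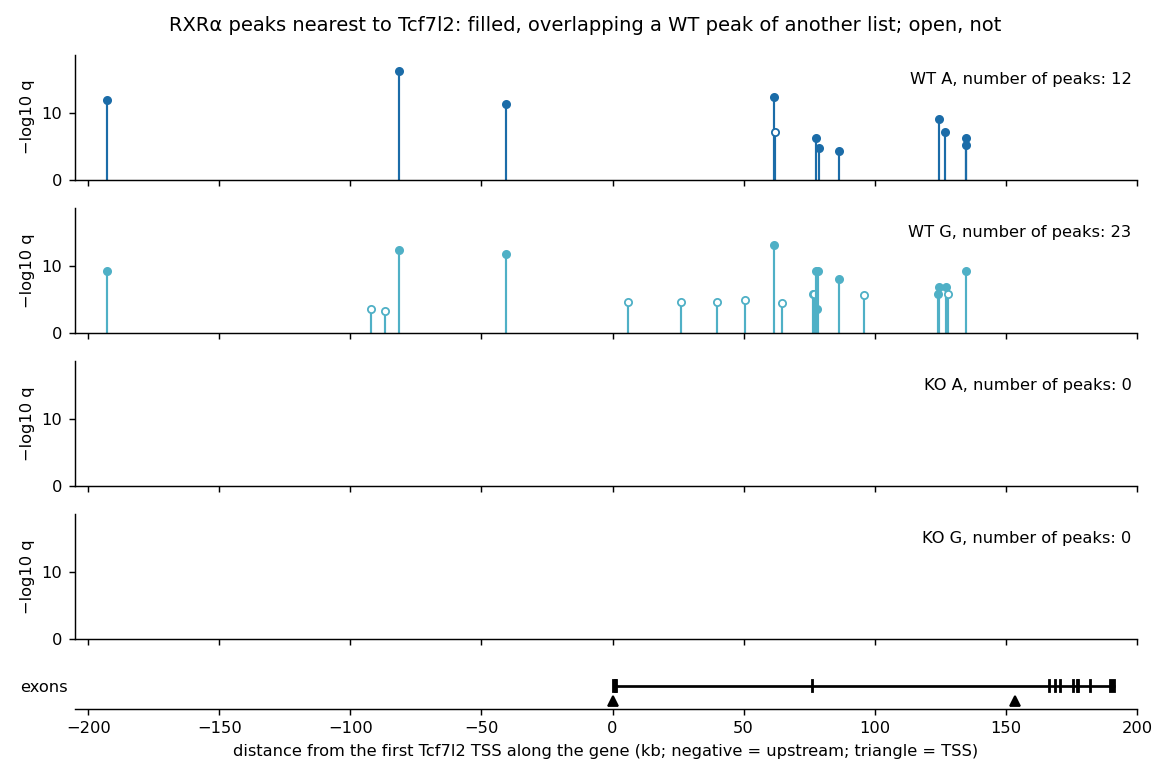
−log10 q (y axis) of each peak assigned to Tcf7l2 against the distance of its summit from the first TSS in kb (x axis), with 1 panel per list and the exons below; triangles mark the first and the last TSS. Filled circles overlap a WT peak of another list and open circles do not. Peaks up to 16.2 stand upstream of the gene and in introns 3 and 4, none stands over the first TSS, and both KO panels are empty.

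No Tcf7l2 region had a KO peak, against the 5.87% given for all regions and 8.12% of the strength class that held T1 to T4. The WT fold enrichment exceeded 5.60, the lowest of KO A peaks at the genome-wide background, in 8 (WT A) and 10 (WT G) of the 10 regions, and 4.65, that of KO G, in all 10 in both. Some WT peaks, such as that of T2, stood on a higher local background, and fold enrichment depends on depth, so these values are a guide only. Whether Tcf7l2 differs from other loci in this respect was not tested.

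WT G held 2.31 times as many peaks as WT A at Zfp608 and 1.92 times at Tcf7l2, against 2.06 times over the whole lists. At Zfp608, 15 of 16 WT A peaks overlapped a WT G peak, and the other was separated from one by a single base, while 83.2% of all WT A peaks overlapped a WT G peak. The rule selected both genes on this overlap, so a high share was favoured and nothing is read from the comparison. In the other direction, 14 of 37 (37.8%) overlapped, against 36.1% of all WT G peaks. The other 23 were weak, with a −log10 q of 2.30 to 6.88 and 6 to 10 fragments, and 10 of them lay within 1 kb of a WT A peak. Intron 3 of Zfp608 held 3 and 16 peaks, and intron 2 held 3 and 7. At Tcf7l2, 11 of 12 (WT A) and 12 of 23 (WT G) were common to both lists, and the 11 others of WT G had a −log10 q of 3.20 to 5.73. Of the WT G peaks without a WT A peak, 18 of 23 at Zfp608 and 11 of 11 at Tcf7l2 had their midpoint within a gene but outside every annotated exon and promoter, as did 50.8% of all such peaks, and the difference was not tested. With only the reference transcript counted inside Zfp608, 20 of the 23 were intronic, some of them in Gm4221. Intron 4 of Tcf7l2 held 7 and 12 peaks, and intron 3 held 2 and 6.

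Summit positions differed between the WT libraries by amounts close to those of other regions. The strongest WT A and WT G summits of a region lay a median of 115 bp apart at Zfp608 and 119 bp at Tcf7l2, against 96 bp over all regions. They were within 100 bp in 6 of 14 and 5 of 10 regions, against 51.8% overall. The most distant pair was at Z6 (698 bp), and the closest were at T5 (5 bp) and Z3 (6 bp). Regions were 787 and 716 bp wide at the median, against 574 bp.

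**Figure D5:**
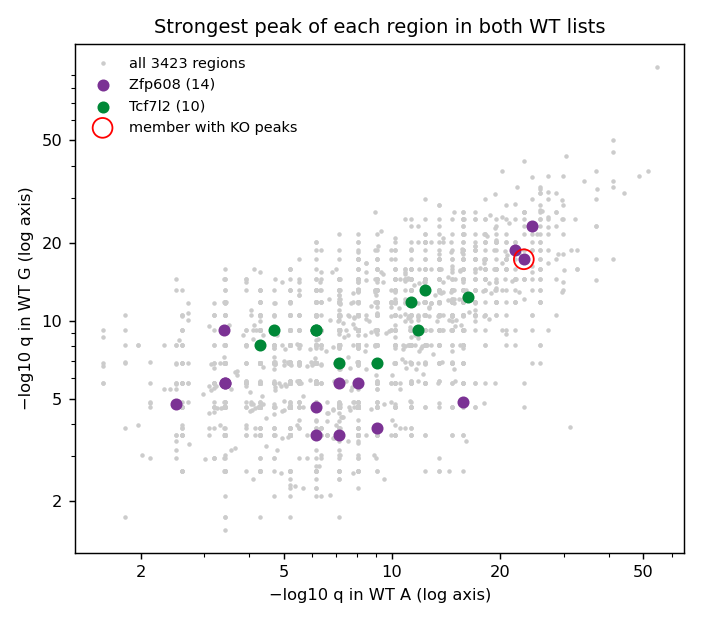
−log10 q of the strongest peak of each region in WT A (x axis) and WT G (y axis), both log axes, for all 3423 regions (grey) and those of Zfp608 (purple) and Tcf7l2 (green); some points coincide. Z9, Z4 and Z7 stand at the upper right, Z7 (red circle) is the only member with KO peaks, and the Tcf7l2 regions run through the middle of the cloud.

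Tcf7l2 stood at the threshold of the rule and Zfp608 above it. Klf6 and Trib1 had 16 regions each, Cebpb 15, Zfp608 14, Dhrs3 and Tomm20 11, and Iqgap1 and Tcf7l2 10, while Dusp1, Nedd9 and Rin2 had 9. Of all 21924 protein-coding genes, 1933 (8.82%) were nearest to at least 1 region, with a median of 1. The stretch that a TSS stands nearest to differs in length between genes. Zfp608 collects peaks over 1269 kb and Tcf7l2 over 562 kb, and per 100 kb they had 1.10 and 1.78 regions, against a median of 1.7 for genes with any region. By density, 63.7% of those genes were above Zfp608 and 48.1% above Tcf7l2. Only the 1933 genes with a region enter this comparison, and a gene with a short stretch is dense with 1 region. The genes without any region are left out, so these shares do not rank the loci among all 21924 genes. If TSSs of every gene type were used, 1 region would remain with Zfp608 and 2 with Tcf7l2. The others would pass to noncoding RNA genes and pseudogenes such as Ppnr (5 Tcf7l2 regions) and Gm26742 (3 Zfp608 regions).

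The pattern of peak numbers over the 4 lists was compared with that of other genes by the Euclidean distance of log2(number + 1). The closest to Zfp608 were Cebpb (25 and 33 WT peaks, 2 and 3 KO peaks; distance 0.957), Dhrs3 (1.02) and Nedd9 (1.05). Bhlhe40 was closest to Tcf7l2, with 12 and 22 WT peaks and no KO peak (0.0614), followed by Rasgef1b (0.249) and Iqgap1 (0.273). The distances rest on 4 lists and are a description.

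Other genes of the Wnt pathway were counted in the same way. Of 53 genes in 5 lists, 8 (15.1%) had a region common to the WT lists nearest to them, against 8.82% of all genes, a difference that was not tested. Among 16 genes of other TCF/LEF factors and their nuclear partners, Ctnnb1, which encodes β-catenin, had 2 regions and the corepressor gene Tle3 had 3. The other TCF/LEF genes, Tcf7, Lef1 and Tcf7l1, had no peak in any list. In the destruction complex, which degrades β-catenin, Axin2 and Gsk3a had 1 region each of 8 genes. Among 13 receptor genes Fzd1 and Fzd7 had 1 each, and none of 10 brakes of the pathway had any. Of 6 target genes, Cd44 had 7 regions and Myc 4. Regions were assigned by the nearest TSS alone, and several lay far from it. Distances of the best region from the TSS, negative if upstream, were −157 kb at Ctnnb1 and −34.7 kb at Tle3. They were 88.7 kb at Axin2, −0.758 kb at Gsk3a, 227 kb at Fzd1 and 13.8 kb at Fzd7. At Myc and Cd44 they were 69.25 and −40.7 kb. Axin2, Fzd1 and Myc were also nearest to a KO peak, as were 0.935% of all genes. At Axin2 the region had −log10 q values of 19.4 and 20.7 in WT and 20.3 and 16.4 in KO, whose ranges overlap, while those of Fzd1 were 17.0 and 15.9 in WT and 7.30 and 4.15 in KO. The paralogue Zfp609 had 1 peak, in WT G, and Rag1 and Rag2, genes of the lymphocyte recombinase, had none. Among the neighbours of the loci, Csnk1g3 had 2 regions and Gramd3, Habp2 and Vti1a none.

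Sequence matches were searched on both strands within 50 bp of the summit of the stronger WT peak. DR1 (AGGTCANAGGTCA, at most 2 mismatches) was found in 1 of 24 regions, T2, and in 6.34% of all 3423 regions. The closest match in the other regions had 3 to 5 mismatches. DR5 (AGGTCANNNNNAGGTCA, at most 2 mismatches) was found in 1 region, Z9, 12 bp from its summit, and in 2.57% of all. DR4 (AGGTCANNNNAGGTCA, at most 2 mismatches) was found in none, and in 1.90% of all. An exact AGGTCA was found in T2, within the DR1, and in Z9, within the DR5, against 15.2% of all regions. At Z7, with its KO peaks, none of these was found.

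RUNX letters (TGTGGTT) were found in 5 of 24 regions, Z5, Z6, Z8, T1 and T2, and in 5.93% of all regions. C/EBP letters (TTGCNNAA) were found in T10 and in 11.0% of all. The letters searched for PU.1 (GAGGAAGT), AP-1 (TGANTCA) and TCF/LEF (CTTTGAT) were in none of the 24 windows and in 4.38%, 7.51% and 1.31% of all. The single AGGTCA overlaps the DR letters, and a match is not evidence that the factor is bound. The GC content of the windows had a median of 42.6% at Zfp608 and 47.0% at Tcf7l2, against 45.5% over all regions.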

How the data were processed

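RXRα HT-ChIPmentation was performed on sorted AMs, with 2 WT and 2 KO libraries; an input sample was not analysed here. Per the authors, Cutadapt 1.7.1 served for trimming, Bowtie2 (version stated as 4.1.2) for alignment to mm10, Picard for duplicates and samtools 0.1.18 for keeping proper pairs above a mapping quality of 30. MACS3 3.0.0a5 then called peaks for every library separately, with the input as control and a q threshold of 0.05. Each peak has a deposited fold enrichment, the ratio of summit pileup to local background after 1 is added to both. The −log10 p and −log10 q, as deposited, describe the summit. The deposited score restates the −log10 q times 10 as an integer, and the deposited last column places the summit. The values depend on the depth of each library, so regions were ranked within lists; the stronger peak of a region, which centres the motif window and the printed sequence, was the one with the higher raw −log10 q, and choosing it by percentile was an alternative. No read counts were tested.

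Files were read in Python 3.11.15 with pandas 2.3.3, numpy 2.4.6, pysam 0.24.0, scipy 1.17.1 and matplotlib 3.10.9. Groups came from the labelled genotype. WT peaks overlapping by at least 1 bp were merged into regions with a peak in both lists, and assigned with GENCODE M21 (basic set); a promoter was the 1.0 kb before a TSS plus 100 bp after it. Whole fragments at a summit were solved from the fold enrichment and p as a Poisson tail (misfit at most 0.004, or 0.012 in WT A, whose pileup was scaled by 0.884). All peaks were solved. Relative depth assumes that the shortest peak has the fragment length. The solving of whole fragments and the motif search were tested on simulated data. The rule for naming took the 5 regions of each gene that ranked best by −log10 q over both WT lists, and any with a KO peak. It also took the 3 genes nearest in peak number. Other regions, such as T10, Z6, Z11 and Z1, were named where a position, motif, summit distance or local background was given. The members, gene lists and motifs were chosen with earlier results of these data known. Alternatives covered the threshold, overlap, TSS set, distance, left-out libraries and motif settings. Sequences of the Zfp608 regions are not shown.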

Additional observations from a re-analysis of the deposited data

How the results depend on the processing

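Of 70 values under 20 alternative settings, 54 were counted as within the limit used and 16 moved beyond it. The limit was 1 SD of the WT libraries for a difference, 1.5 times for a count and 10 points for a percentile. A reversal was not a class of its own. The ratios by replicate letter at Zfp608 were counted as within the limit although none was applied to them. The SD of 14.8 at Zfp608 is wide, and differences that moved by over 1.5 times lie within it. With 2 WT libraries, leaving 1 of them out shifts a difference by less than their SD whatever the counts. Those values were bound to stay within the limit at both genes and say nothing about stability. With WT G held to the number of peaks of WT A, the difference at Zfp608 was 14 in place of 25 and its regions 10 in place of 14; at Tcf7l2 they were 14 and 10. Where 50% of both peaks had to be shared, 6 regions in both WT lists were left at Zfp608, 0 of them with a KO peak, and 4 at Tcf7l2. The KO peaks of Z7 are too narrow to meet that demand. With summits at most 200 bp apart, Zfp608 had 9 regions and 0 with a KO peak; the WT summits of Z7 are farther apart than that. With the nearest TSS of any gene type, the WT minus KO difference was 2.5 peaks at Zfp608 and 4.5 at Tcf7l2, the regions 1 and 2, those with a KO peak at Zfp608 0, those with DR1 0, and the median percentile of −log10 q over the WT peaks 72.8 (from 44.8) and 44.8 (from 61.5). Within 100 kb of the TSS, 8 regions were left at Zfp608. DR1 was found in 2 regions instead of 1 with 100 bp on each side of the summit, and in 2 where the strongest peak was chosen by its percentile in its list, an alternative chosen after seeing the data, as was the comprehensive TSS set, under which the difference was 25 at Zfp608 and 16.5 in place of 17.5 at Tcf7l2, and Tcf7l2 had 9 regions, below the threshold of 10 that selected it. Leaving out 1 library gave differences of 14.5 (without WT G) to 35.5 (without WT A) at Zfp608 and 12 to 23 at Tcf7l2. With the replicate letter as a block the ratio at Zfp608 was 17.2, from 16 (A) and 18.5 (G); at Tcf7l2 no ratio could be formed, since both KO lists were at 0. Whether same-lettered libraries are paired is not given by the labels. Further limits are 2 libraries per genotype and lists without read counts.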

Other observations

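The local background at some member peaks was above that of the genome. At Z11 in WT A it was 2.39 times the genome-wide level, and the −log10 q there was 3.42 with 17 fragments, while WT G reached 9.26 with 12 fragments at 1.00 times the level. At Z1 the background was 1.59 times the genome-wide level in WT A and 1.72 times in WT G, and at T2 it was 1.38 and 1.41 times. Of the peaks at Zfp608, 14 of 16 in WT A and 27 of 37 in WT G were at the genome-wide background, and of those at Tcf7l2 9 of 12 and 16 of 23.

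Outside the regions in both WT lists, the farthest single WT G peak near the 5′ end of Zfp608 lay 30.2 kb upstream of the TSS, in an intron of Gm4221, with a −log10 q of 6.88 and 10 fragments. No WT A peak overlapped it.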
